A study of Homo sapiens with 12 samples.

Results

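The aminoacyl-tRNA synthetases are the enzymes that join each amino acid to its transfer RNA, and 36 of their genes were followed by symbol in a table of array signals with 31303 symbols. Each gene was read from its brightest detected probe. The 36 divide into 20 genes for the cytosolic enzymes and 16 for the mitochondrial enzymes, whose symbols end in 2. All but FARSB, which encodes a subunit of the cytosolic phenylalanyl enzyme and was detected on 0 of 12 arrays, were tested, so 35 of the 14953 genes tested were synthetases, 19 cytosolic and 16 mitochondrial.

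The samples were 12 RNA preparations of the established Hodgkin lymphoma line L428, hybridised to Illumina HT-12 bead arrays, with 3 samples in each of 4 groups. Ixazomib was given for 24 h at 25 nM to the first group and at 71.25 nM to the second; the third held cells resistant to ixazomib and the fourth control cells. Ixazomib is an inhibitor of the proteasome, and the array columns call it MLN2238. For the resistant cells neither a dose, nor the presence of drug at harvest, nor whether they were 1 clone is stated in the labels. A single sample (1 of the 3 with 71.25 nM in their titles) carries a description naming 25 nM, and it stayed with its title. Biological triplicates are mentioned only beside the 25 nM treatment, so the p-values reflect only how far these samples spread, and that spread may be technical.

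Every group came from the same line. Of 8 Hodgkin cell markers, 8 were tested and 7 were detected on all 12 arrays, and 3 of 6 B cell, 1 of 5 T cell, 3 of 4 myeloid and 1 of 4 stromal or epithelial markers passed the detection filter. Those detected on all 12 arrays were CD79A of the B cell list and LYZ and CSF1R of the myeloid list, while PAX5, POU2AF1, CD3D, CD3E, CD3G and CD5 did not pass. Mean signal per array was 316.4 to 384 at 25 nM, 342.3 to 353.8 at 71.25 nM, 293.2 to 326.7 in resistant cells and 343.5 to 400.5 in control cells. The arrays are numbered 1 to 12 in the order of the groups, so array position and group cannot be told apart. In RNA of whole cultures, fewer cells with a transcript and less of it per cell cannot be told apart either.

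Cytosolic synthetases charge transfer RNA for the cytosolic ribosomes, and 8 of those measured sit together with small scaffold proteins in the multisynthetase complex. The mitochondrial enzymes are encoded in the nucleus too, are imported, and serve the few proteins that mitochondria make themselves. GARS and KARS each supply both compartments from 1 gene. Many cytosolic synthetase genes are known targets of ATF4, a transcription factor made when the kinases of the integrated stress response slow translation, and WARS is also a long-known interferon gamma target.

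The ATF4 site, shared with C/EBP proteins, is read here by the motif TGATGNAA, searched on both strands in 300 bases around each gene's start (250 before and 50 after, from RefSeq, GRCh38.p14). The table held such a window for 30 members, 16 cytosolic and 14 mitochondrial. The motif was in 6 of the 16 cytosolic windows and 1 of the 14 mitochondrial windows, and in 3.67% of all 27305 windows. These are shown because they are the stretches in which a known regulator's letters and the members overlap. Each is 30 bases, 5′ to 3′ on the strand of the gene, with the motif in capitals. Coordinates are given after them.
AARS: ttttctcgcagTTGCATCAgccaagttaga
CARS: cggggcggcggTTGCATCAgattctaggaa
IARS: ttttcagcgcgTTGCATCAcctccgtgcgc
MARS: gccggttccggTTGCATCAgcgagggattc
NARS: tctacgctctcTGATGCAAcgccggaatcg
TARS: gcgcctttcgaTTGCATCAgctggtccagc
YARS2: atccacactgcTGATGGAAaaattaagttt

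The AARS window lies at chr16:70289675-70289704 on the minus strand and its motif begins 187 bases before the start. The CARS window (chr11:3057407-3057436, minus), the IARS window (chr9:92293692-92293721, minus) and the MARS window (chr12:57488053-57488082, plus) have a motif that begins 2, 13 and 4 bases before the start. The motifs of CARS and MARS run across the start. In NARS (chr18:57621804-57621833, minus) the motif begins at base 15 of the transcript, and in TARS (chr5:33440956-33440985, plus) at base 3. The mitochondrial YARS2 window (chr12:32756076-32756105, minus) has it 197 bases before the start. The windows of EPRS, GARS, SARS and WARS held no such letters. A match is a string of letters and not a shown site. No stretch outside the window was searched, so a window without the letters does not show a gene without a site. LARS and YARS, which are on the list of known ATF4 targets, had no window. Of the other motifs searched on both strands, the E-box CACGTG was in 1 cytosolic window (IARS) and 3 mitochondrial windows (CARS2, EARS2 and MARS2), against 7.43% of all windows. The core of the interferon-stimulated response element was in 0 cytosolic and 1 mitochondrial window (EARS2), against 3.65%, and the gamma-activated site TTCNNNGAA was in 2 cytosolic (CARS and TARS) and 2 mitochondrial windows (PARS2 and WARS2), against 7.88%.

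Cytosolic synthetases were more often higher than in control cells, and mitochondrial synthetases more often lower, in each of the 3 comparisons. For the cytosolic genes in resistant cells this depends on the processing. Under median scaling 5 rose and 5 fell there, where 48% of all genes were called and 43.2% of those calls were rises. Of the 35 tested members, 25 differed between groups in limma's F test (adjusted p under 0.05), 14 of 19 cytosolic and 11 of 16 mitochondrial, against 52.7% of all genes. Among the cytosolic genes 8 were called in the same direction in all 3 comparisons with control, and among the mitochondrial genes 6 were, against 19.8% of all genes. There were 4 of each class called in none, against 42.4% of all genes.

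**Figure D1:**
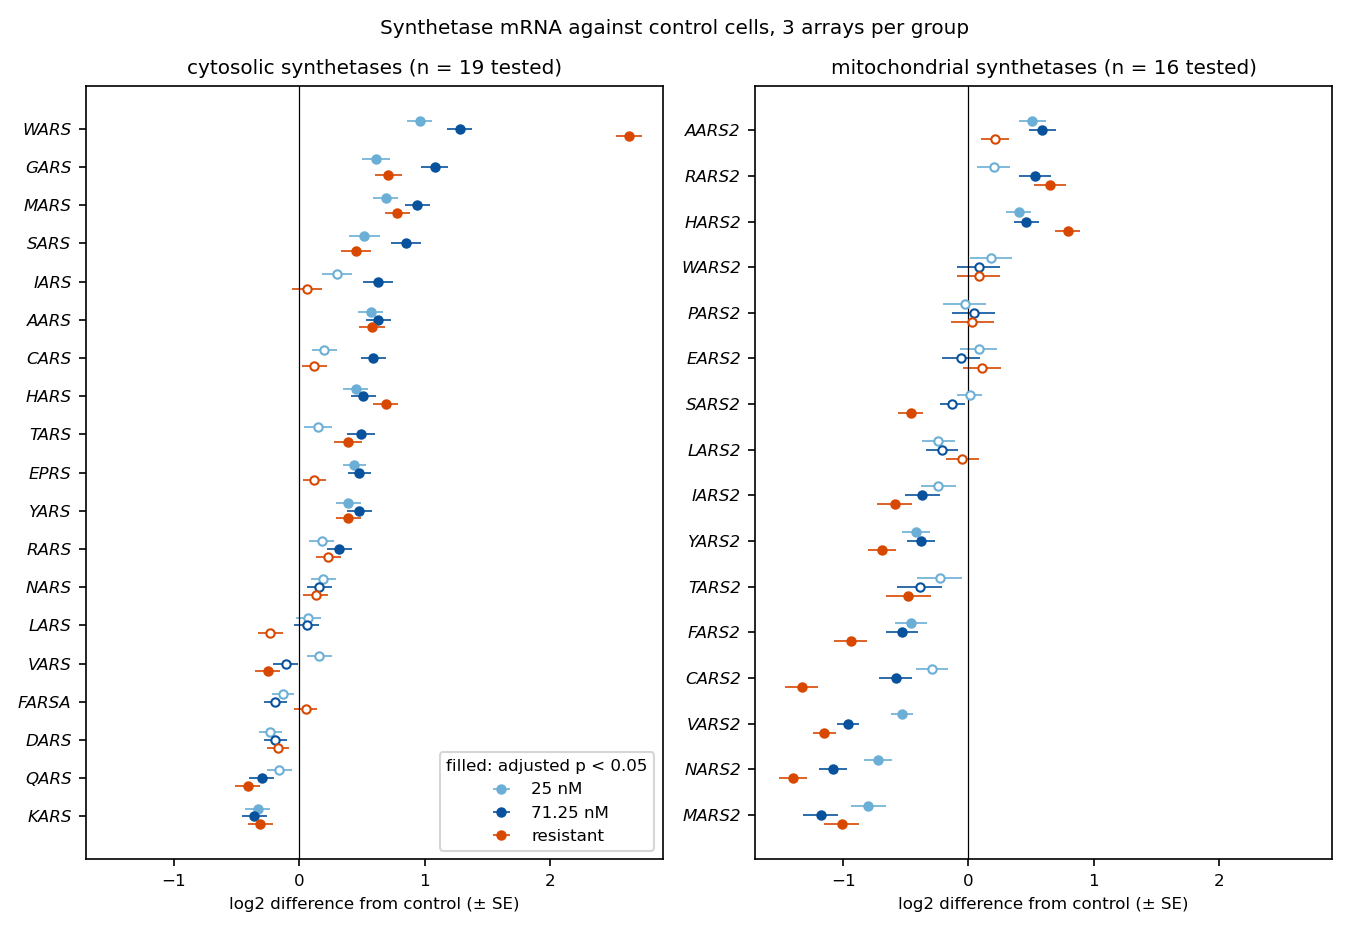
Log2 difference from control with its SE for each tested synthetase (3 arrays per group), cytosolic on the left and mitochondrial on the right, with filled points where limma's adjusted p was under 0.05. At 71.25 nM, 12 of 19 cytosolic genes were called higher and 7 of 16 mitochondrial genes were called lower, and WARS in resistant cells stands farthest right at 2.63.

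At 25 nM the enzymes that rose were mostly cytosolic and those that fell mostly mitochondrial. Of 19 cytosolic genes 8 rose and 1 fell, and of 16 mitochondrial genes 2 rose and 5 fell, where 13.3% of all genes rose and 13.7% fell. The cytosolic tryptophanyl enzyme WARS rose 1.94-fold and the methionyl enzyme MARS 1.61-fold, and the mitochondrial methionyl enzyme MARS2 fell to 0.574 of control. The median log2 difference was 0.20 over the cytosolic genes and -0.23 over the mitochondrial genes, against 0.00 over all genes. The 25 nM arrays lay above all control arrays in 11 cytosolic and 2 mitochondrial genes and below them in 4 and 7, where 20.5% of all genes lay above and 21.4% below.

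At 71.25 nM more members passed the test. Of 19 cytosolic genes 12 rose and 2 fell, and of 16 mitochondrial genes 3 rose and 7 fell, where 19.4% of all genes rose and 19.6% fell. The median log2 difference was 0.48 for cytosolic and -0.29 for mitochondrial genes, against -0.01 over all genes. The groups did not overlap in 13 cytosolic and 3 mitochondrial genes above control and in 4 and 8 below it, where the shares over all genes were 24% and 24.1%. Cytosolic genes higher by at least 1.5-fold numbered 7, and none was lower by that much, while 1 mitochondrial gene was higher by that much and 3 were lower. Of all 14953 genes, 1509 were called higher and 1494 lower by at least 1.5-fold.

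In resistant cells 8 cytosolic genes rose and 3 fell, and 2 mitochondrial genes rose and 9 fell, where 23% of all genes rose and 24.1% fell. The median log2 difference was 0.13 over the cytosolic genes and -0.47 over the mitochondrial genes, against -0.02 over all genes. Resistant arrays lay above all control arrays in 11 cytosolic and 3 mitochondrial genes and below them in 5 and 8, where 26.2% of all genes lay above and 27.6% below. With median scaling in place of quantile normalisation the cytosolic median in resistant cells was -0.09, the 1 value here whose sign turned. Differences of at least 1.5-fold were found upward in 4 cytosolic and 2 mitochondrial genes, and downward in 7 mitochondrial genes and no cytosolic gene. Among all 14953 genes, 2065 were called higher and 1994 lower by that much.

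The 3 comparisons share their control arrays and are not independent. All changes are relative to the other genes on the array, since quantile normalisation gives every array the same distribution.

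**Figure D2:**
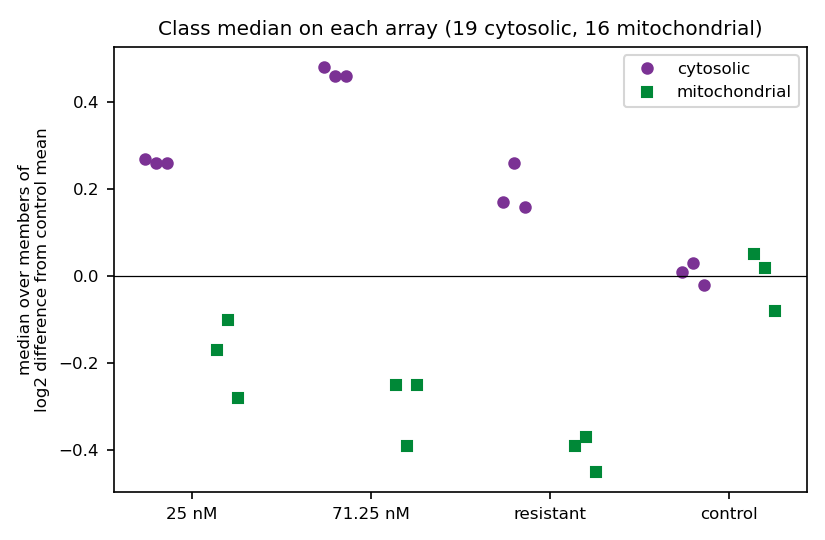
Median over the members of a class of the log2 difference from the control mean, for each array, with cytosolic members (19) as circles and mitochondrial members (16) as squares. The 71.25 nM arrays lie at 0.46 to 0.48 for cytosolic and -0.39 to -0.25 for mitochondrial members, and the control arrays lie within -0.08 and 0.05.

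WARS, which charges tryptophan, had the largest difference of any tested member in all 3 comparisons. Its log2 intensity was 10.89, 10.71 and 10.91 at 25 nM, 11.21, 11.16 and 11.12 at 71.25 nM, 12.65, 12.51 and 12.37 in resistant cells, and 9.79, 9.95 and 9.90 in control cells. Every treated or resistant array was above every control array, and the resistant arrays were above all others. The log2 difference from control was 0.96 ± 0.10 (SE, adjusted p = 2.28e-05) at 25 nM, 1.28 ± 0.10 (adjusted p = 6.81e-07) at 71.25 nM and 2.63 ± 0.10 (adjusted p = 3.49e-10) in resistant cells, the last a 6.19-fold rise. The second WARS probe gave 1.06, 1.46 and 2.86. Resistant cells exceeded 71.25 nM cells by 1.35. Of 16 interferon response genes 9 rose and 2 fell at 25 nM, 8 rose and 4 fell at 71.25 nM and 13 rose and 0 fell in resistant cells, with median differences of 0.40, 0.36 and 1.72. In the same order 13.3%, 19.4% and 23% of all genes rose and 13.7%, 19.6% and 24.1% fell. The 16 ranged from -0.54 to 1.03 at 25 nM, -0.77 to 1.41 at 71.25 nM and 0.03 to 3.44 in resistant cells. The top values of these ranges belong to IRF1 and GBP1. IRF1, an interferon-induced activator, differed by 1.03, 1.41 and 2.87, and GBP1, an interferon-induced GTPase, by 0.88, 1.09 and 3.44. The part of an interferon response in the WARS values was not tested.

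GARS, MARS and SARS, which charge glycine, methionine and serine, rose in all 3 comparisons. GARS had log2 intensities of 11.54, 11.78 and 11.78 at 25 nM, 12.06, 12.23 and 12.21 at 71.25 nM, 11.75, 11.97 and 11.68 in resistant cells, and 11.12, 11.11 and 11.03 in control cells. MARS had 10.02, 9.87 and 10.02 at 25 nM, 10.24, 10.15 and 10.28 at 71.25 nM, 10.00, 10.17 and 10.00 in resistant cells, and 9.27, 9.34 and 9.24 in control cells. SARS had 9.61, 9.96 and 9.77 at 25 nM, 10.11, 10.10 and 10.10 at 71.25 nM, 9.63, 9.91 and 9.57 in resistant cells, and 9.32, 9.34 and 9.11 in control cells. In each of the 3 genes all 9 treated or resistant arrays were above the 3 control arrays, and the 71.25 nM arrays were above the 25 nM arrays. The GARS difference was 0.61 ± 0.11 (adjusted p = 0.00117) at 25 nM, 1.08 ± 0.11 (adjusted p = 5.14e-06) at 71.25 nM and 0.71 ± 0.11 (adjusted p = 0.000121) in resistant cells. For MARS the values were 0.69, 0.94 and 0.78, with the adjusted p between 0.000175 and 5.4e-06. For SARS they were 0.52, 0.85 and 0.45, and the last missed the threshold under median scaling (0.24, adjusted p = 0.131).

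AARS and HARS, the alanyl and histidyl enzymes, also rose in all 3 comparisons, at sizes closer together. AARS had log2 intensities of 11.45, 11.51 and 11.60 at 25 nM, 11.69, 11.64 and 11.41 at 71.25 nM, 11.54, 11.50 and 11.53 in resistant cells, and 11, 10.94 and 10.91 in control cells. HARS had 10.40, 10.55 and 10.58 at 25 nM, 10.48, 10.51 and 10.69 at 71.25 nM, 10.83, 10.75 and 10.66 in resistant cells, and 10.13, 10.00 and 10.04 in control cells. For both genes the 3 control arrays were below the other 9, and the 2 doses overlapped. The AARS differences were 0.57, 0.63 and 0.58 (SE 0.10), and those of HARS 0.45, 0.51 and 0.69 (SE 0.10), the largest adjusted p of the 6 being 0.00492.

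CARS and IARS, which charge cysteine and isoleucine, were called at 71.25 nM only. CARS had log2 intensities of 9.69, 9.53 and 9.74 at 25 nM, 9.98, 10.20 and 9.94 at 71.25 nM, 9.65, 9.57 and 9.51 in resistant cells, and 9.50, 9.38 and 9.48 in control cells. IARS had 10.11, 10.01 and 9.97 at 25 nM, 10.41, 10.22 and 10.46 at 71.25 nM, 9.89, 9.72 and 9.76 in resistant cells, and 9.98, 9.69 and 9.52 in control cells. The 71.25 nM arrays were above all others in both genes, and resistant arrays overlapped control arrays for IARS. At 71.25 nM CARS differed by 0.59 ± 0.10 (adjusted p = 0.000591) and IARS by 0.63 ± 0.12 (adjusted p = 0.00109). In resistant cells they differed by 0.12 (adjusted p = 0.375) and 0.06 (adjusted p = 0.742). The dimmer CARS probe gave 0.32 at 71.25 nM and was not called, and the dimmer IARS probe, detected on 4 arrays, gave 0.22.

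The other cytosolic members had smaller differences. EPRS, which charges both glutamate and proline, rose by 0.44 at 25 nM (adjusted p = 0.00399) and 0.48 at 71.25 nM (adjusted p = 0.0011), and its value in resistant cells was 0.12 (adjusted p = 0.351). Its log2 means were 11.37 ± 0.13, 11.42 ± 0.01 and 11.05 ± 0.02 against 10.94 ± 0.04 in control cells (SD, n = 3 each), and no array of the 9 overlapped control. YARS, the tyrosyl enzyme, rose by 0.39, 0.48 and 0.39, with log2 means of 11.31 ± 0.04, 11.41 ± 0.09 and 11.32 ± 0.08 against 10.93 ± 0.07 in control cells (SD, n = 3 each). TARS, the threonyl enzyme, rose by 0.49 at 71.25 nM and 0.39 in resistant cells, and RARS, the arginyl enzyme, rose by 0.32 at 71.25 nM alone. TARS averaged 9.91 ± 0.10, 10.25 ± 0.11 and 10.16 ± 0.07 against 9.76 ± 0.19 in control cells, and its 25 nM arrays overlapped control. The resistant TARS call (adjusted p = 0.0113) and the 71.25 nM RARS call (adjusted p = 0.026) were lost under median scaling. The median-scaled RARS value was 0.18 and the TARS value 0.17. Under median scaling YARS also missed the threshold at 25 nM (0.28, adjusted p = 0.051) and in resistant cells (0.18, adjusted p = 0.149).

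Cytosolic genes that fell were KARS, QARS and VARS. KARS, the lysyl enzyme, was 9.03 ± 0.06, 9.0 ± 0.06 and 9.04 ± 0.15 at the lower dose, the higher dose and in resistant cells against 9.35 ± 0.09 in control cells (SD, n = 3 each), and fell by 0.33, 0.36 and 0.31. QARS, the glutaminyl enzyme, averaged 11.48 ± 0.05, 11.34 ± 0.07 and 11.23 ± 0.14 against 11.65 ± 0.10 in control cells, and was below control on all 9 arrays. It fell by 0.30 at 71.25 nM (adjusted p = 0.0315) and by 0.41 in resistant cells (adjusted p = 0.00469). VARS, the valyl enzyme, fell by 0.25 in resistant cells (adjusted p = 0.0481), but its probes disagree: a dimmer one detected on 11 arrays gave -0.40 there (adjusted p = 0.0547), and another detected on 5 arrays gave 0.32 (adjusted p = 0.0233). Values for NARS, LARS, FARSA and DARS lay between -0.23 and 0.19 in all 3 comparisons, and none was called. Leaving out 1 array moved the KARS call at 25 nM above the threshold for 5 of the 12 arrays, and the VARS call for 11 of 12.

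**Figure D3:**
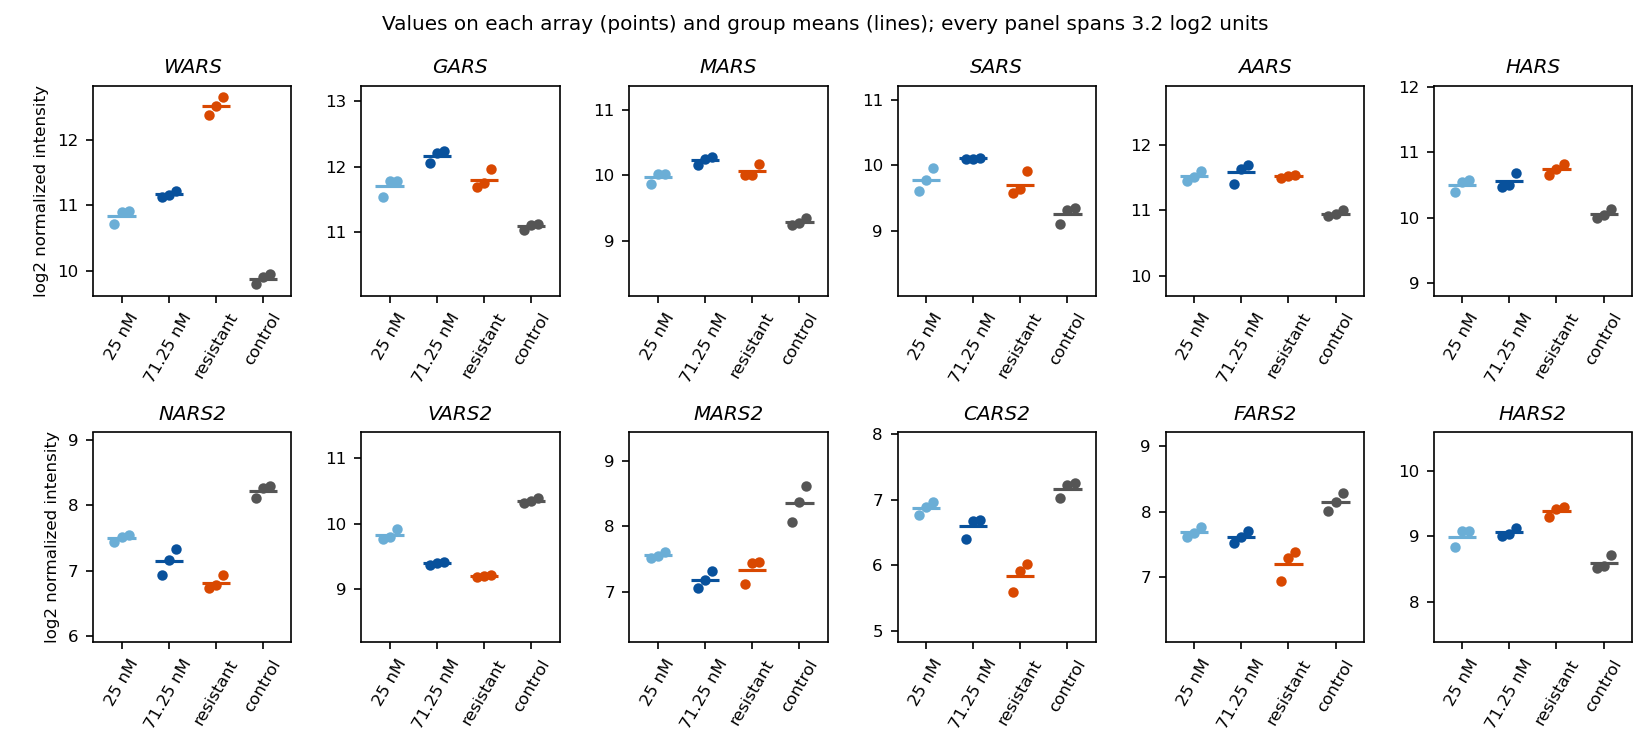
Log2 normalized intensity on each array (points) with the group mean (line) for 12 synthetase genes, in the order 25 nM, 71.25 nM, resistant and control, each panel spanning 3.2 log2 units. WARS in resistant cells lies at 12.37 to 12.65 against 9.79 to 9.95 in control cells, and NARS2 lies at 6.73 to 6.94 in resistant cells against 8.11 to 8.29 in control cells.

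Among the mitochondrial enzymes NARS2, VARS2 and MARS2, which charge asparagine, valine and methionine, fell in all 3 comparisons. NARS2 had log2 intensities of 7.54, 7.52 and 7.44 at 25 nM, 7.17, 7.33 and 6.93 at 71.25 nM, 6.94, 6.78 and 6.73 in resistant cells, and 8.29, 8.11 and 8.26 in control cells. VARS2 had 9.79, 9.76 and 9.92 at 25 nM, 9.41, 9.39 and 9.37 at 71.25 nM, 9.22, 9.19 and 9.20 in resistant cells, and 10.34, 10.32 and 10.39 in control cells. MARS2 had 7.61, 7.51 and 7.54 at 25 nM, 7.17, 7.05 and 7.31 at 71.25 nM, 7.12, 7.45 and 7.44 in resistant cells, and 8.37, 8.61 and 8.07 in control cells. All 9 treated or resistant arrays were below the 3 control arrays in each gene, and the 2 doses did not overlap. NARS2 fell by 0.72 ± 0.11 (adjusted p = 0.000458) at 25 nM, by 1.08 ± 0.11 (adjusted p = 7.44e-06) at 71.25 nM and by 1.40 ± 0.11 (adjusted p = 3.38e-07) in resistant cells. VARS2 fell by 0.53, 0.96 and 1.15 (SE 0.09) and MARS2 by 0.80, 1.18 and 1.01 (SE 0.14). The dimmer MARS2 probe, detected on 8 arrays, gave -0.29, -0.30 and -0.34 and was not called. VARS2 is also an older name of the gene for the cytosolic valyl enzyme, so that row rests on the symbol as deposited.

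CARS2, FARS2, YARS2 and IARS2, for cysteine, phenylalanine, tyrosine and isoleucine, had their largest falls in resistant cells. CARS2 had log2 intensities of 6.97, 6.89 and 6.76 at 25 nM, 6.68, 6.69 and 6.40 at 71.25 nM, 5.59, 5.91 and 6.01 in resistant cells, and 7.26, 7.02 and 7.22 in control cells. FARS2 had 7.62, 7.67 and 7.77 at 25 nM, 7.62, 7.53 and 7.71 at 71.25 nM, 7.38, 7.30 and 6.94 in resistant cells, and 8.15, 8.28 and 8.01 in control cells. The groups did not overlap control in either gene, and the resistant arrays were the lowest. YARS2 had 9.55, 9.31 and 9.35 at 25 nM, 9.44, 9.37 and 9.52 at 71.25 nM, 9.12, 9.23 and 9.06 in resistant cells, and 9.84, 9.95 and 9.67 in control cells. IARS2 had 10.50, 10.72 and 10.42 at 25 nM, 10.36, 10.32 and 10.57 at 71.25 nM, 10.38, 10.05 and 10.14 in resistant cells, and 10.64, 11.04 and 10.68 in control cells. YARS2 was below control on all 9 arrays, and IARS2 overlapped control at 25 nM. In resistant cells CARS2 fell by 1.33 ± 0.13 (adjusted p = 1.93e-06), FARS2 by 0.94 ± 0.13 (adjusted p = 3.2e-05), YARS2 by 0.69 ± 0.11 (adjusted p = 0.000139) and IARS2 by 0.59 ± 0.14 (adjusted p = 0.00273). The 25 nM value of CARS2 was -0.29 (adjusted p = 0.121). The 71.25 nM call of IARS2 (-0.37, adjusted p = 0.0475) was lost without control array 2 (-0.24, adjusted p = 0.192) and without 6 other arrays.

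HARS2, RARS2 and AARS2, for histidine, arginine and alanine, each rose in at least 2 comparisons. HARS2 had log2 intensities of 9.08, 9.08 and 8.83 at 25 nM, 9.01, 9.13 and 9.04 at 71.25 nM, 9.30, 9.45 and 9.41 in resistant cells, and 8.72, 8.52 and 8.55 in control cells. RARS2 had 8.45, 8.54 and 8.28 at 25 nM, 8.80, 8.54 and 8.94 at 71.25 nM, 8.88, 8.95 and 8.82 in resistant cells, and 8.03, 8.36 and 8.30 in control cells. AARS2 had 7.47, 7.36 and 7.41 at 25 nM, 7.46, 7.54 and 7.49 at 71.25 nM, 7.24, 7.03 and 7.08 in resistant cells, and 7.03, 6.69 and 7.0 in control cells. HARS2 was above control on all 9 arrays, RARS2 overlapped control at 25 nM, and AARS2 was closest to control in resistant cells. HARS2 rose by 0.40 (adjusted p = 0.0132), 0.46 (adjusted p = 0.0034) and 0.79 (adjusted p = 3.23e-05). RARS2 rose by 0.53 at 71.25 nM and 0.65 in resistant cells, and AARS2 rose by 0.51 at 25 nM and 0.59 at 71.25 nM, with 0.21 in resistant cells (adjusted p = 0.142). HARS2 is also an older name of DTD1, a D-aminoacyl-tRNA deacylase, whose own probe fell by 0.49, 0.76 and 0.60.

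HARS and HARS2 stand head to head: their starts on chromosome 5 are 85 bases apart, on opposite strands. The 84 bases between them (chr5:140691371-140691454, plus strand, GRCh38.p14, from RefSeq) are shown because both flanking genes rose in all 3 comparisons. As printed, the stretch begins beside the HARS start and ends beside the HARS2 start. No base is marked.
HARS2 to HARS interval: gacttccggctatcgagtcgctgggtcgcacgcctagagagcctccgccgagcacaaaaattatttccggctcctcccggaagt

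Of the remaining mitochondrial members SARS2 and TARS2 were called, each in resistant cells alone. SARS2, the seryl enzyme, fell by 0.46 ± 0.10 in resistant cells (adjusted p = 0.0022), with 0.01 at 25 nM and -0.13 at 71.25 nM. Its log2 means were 8.71 ± 0.14, 8.57 ± 0.03 and 8.24 ± 0.09 against 8.70 ± 0.06 in control cells (SD, n = 3 each). TARS2, the threonyl enzyme, was called lower in resistant cells (-0.48, adjusted p = 0.0421), but its resistant and control arrays overlapped, with means of 6.63 ± 0.27 in resistant and 7.11 ± 0.40 in control cells. LARS2, EARS2 and PARS2 were called in no comparison, with values between -0.24 and 0.11. WARS2, the mitochondrial tryptophanyl enzyme, was detected on 1 of 3 arrays at 25 nM, 2 at 71.25 nM, 2 in resistant cells and 0 in control cells, so no fold is given. FARSB had mean log2 intensities of 4.46, 4.51 and 4.36 at the lower dose, the higher dose and in resistant cells, and 4.50 in control cells, at background.

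For 15 amino acids both enzymes were detected on all 12 arrays, which leaves out tryptophan because of WARS2, and the difference of the cytosolic gene minus that of the mitochondrial gene is a description without a test. The cytosolic gene had the more positive difference in 14 of 15 pairs at 25 nM, 14 of 15 at 71.25 nM and 12 of 15 in resistant cells, with median gaps of 0.46, 0.85 and 0.87. EPRS serves in 2 pairs. The methionine pair had gaps of 1.49 ± 0.12, 2.12 ± 0.12 and 1.79 ± 0.12 (SE), with MARS higher and MARS2 lower than control in each. The asparagine pair had 0.92, 1.24 and 1.54 and the cysteine pair 0.49, 1.16 and 1.45. All gaps come from the main processing alone, and the falls of dim mitochondrial genes were smaller under some alternatives. In the asparagine pair most of the gap was on the mitochondrial side. NARS was at 0.19, 0.16 and 0.13 and NARS2 at -0.72, -1.08 and -1.4.

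The alanine and histidine pairs had small gaps at both doses, with both enzymes of each above control. The alanine gap was 0.06 and 0.04 at the 2 doses and 0.37 in resistant cells, and the histidine gap was 0.06, 0.05 and -0.09 (SE 0.12). The arginine pair ran the other way, at -0.02, -0.21 and -0.43 (SE 0.12), RARS2 having the more positive difference. In these pairs the 2 probes share their arrays but not their sequence.

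**Figure D4:**
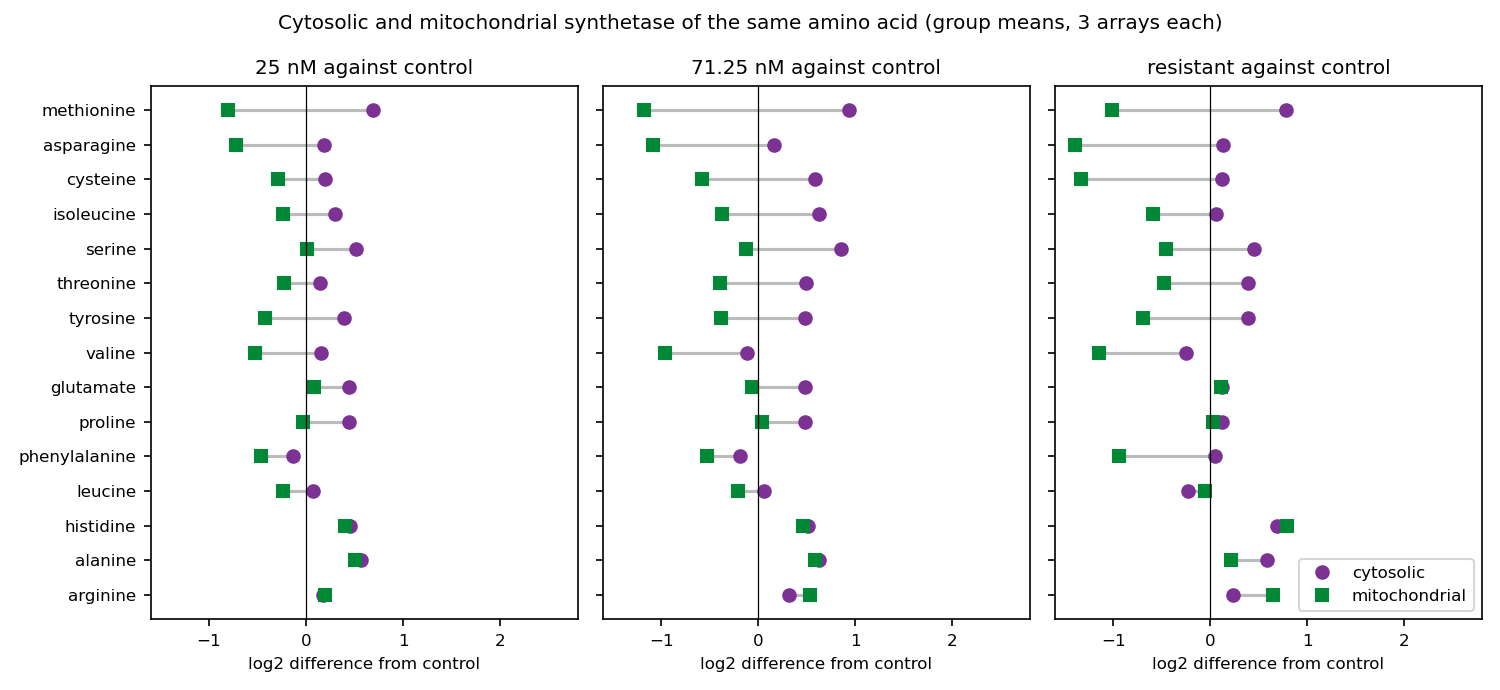
Log2 difference from control for the cytosolic (circles) and mitochondrial (squares) enzyme of 15 amino acids, 1 panel per comparison, sorted by the gap at 71.25 nM. The methionine pair is the widest of the 15 in each panel (1.49, 2.12 and 1.79), while the alanine and histidine symbols lie almost on each other at both doses.

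Between 71.25 nM and 25 nM, 3 members were called where 5.86% of all genes were, 2.98% higher and 2.88% lower. CARS was higher by 0.39 and GARS by 0.47, and the VARS2 difference was -0.43. The count of 3 of 35 depends on the processing: on the authors' values 11 members were called where 11.9% of all genes were, and with the 2 groups alone 0 were, where 3.92% of all genes were. CARS, GARS, MARS, SARS and WARS were without overlap in the order control, 25 nM, 71.25 nM upward, and CARS2, MARS2, NARS2, QARS and VARS2 downward, where 6.35% and 5.9% of all genes did so.

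Resistant cells against 71.25 nM gave 11 called members, 2 higher and 9 lower, where 11.3% of all genes were higher and 10.3% lower. WARS was higher by 1.35 and HARS2 by 0.33. Those lower were AARS2 (-0.38), CARS (-0.46), CARS2 (-0.76), EPRS (-0.37), FARS2 (-0.41), GARS (-0.37), IARS (-0.58), SARS (-0.40) and SARS2 (-0.33). Of the cytosolic members CARS, EPRS, GARS, IARS and SARS were therefore lower in resistant cells than at 71.25 nM. Against 25 nM, 11 members were called where 29.6% of all genes were. Of these 3 were higher (WARS 1.67, RARS2 0.46, HARS2 0.39), where 15.4% of all genes were. The 8 lower were CARS2 (-1.04), NARS2 (-0.68), VARS2 (-0.62), FARS2 (-0.48), SARS2 (-0.46), VARS (-0.41), EPRS (-0.32) and LARS (-0.30), where 14.2% of all genes were lower.

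Among subgroups of the cytosolic enzymes, the 12 of 19 tested that are known ATF4 targets held most of the rises. That list, which includes WARS, was chosen with earlier results of these data known. The part of ATF4 in the synthetase values was not tested. Of the 12, 7, 10 and 7 rose at the lower dose, the higher dose and in resistant cells and 0 fell, with medians of 0.41, 0.61 and 0.39. Of the other 7 tested, 1, 2 and 1 rose and 1, 2 and 3 fell, with medians of -0.13, -0.19 and -0.17. Of the 16 tested genes of the ATF4 and amino acid list 13, 14 and 12 rose and 0, 2 and 2 fell, with medians of 0.82, 1.37 and 1.35. In the same order 13.3%, 19.4% and 23% of all genes rose and 13.7%, 19.6% and 24.1% fell. Several counts of the other 7 lie near these shares. ATF4 itself rose by 0.77, 1.22 and 1.21, and ASNS, which makes asparagine, by 0.87, 1.26 and 0.68. DDIT3, the stress factor CHOP, rose by 1.75, 2.98 and 3.53. EIF2AK4, the kinase that senses uncharged transfer RNA, was at -0.45 (adjusted p = 0.0505) at 25 nM and fell by 0.74 and 0.81 in the other comparisons.

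The members with an ATF4 motif did not share a size. AARS and MARS were called in all 3 comparisons, CARS and IARS at 71.25 nM alone, and TARS at 71.25 nM and in resistant cells, while NARS was called in none and the mitochondrial YARS2 fell. WARS and GARS had the largest cytosolic rises at 71.25 nM without the motif in their windows, the only stretches searched. Over all genes 13.3%, 19.4% and 23% rose and 13.7%, 19.6% and 24.1% fell in these comparisons. The 8 genes of the multisynthetase complex gave 2, 4 and 1 rises and 1, 2 and 2 falls, with medians of 0.13, 0.19 and -0.05. The 11 tested outside it gave 6, 8 and 7 rises and 0, 0 and 1 falls, with medians of 0.39, 0.51 and 0.39.

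The synthetases also fall into 2 classes by the fold of the catalytic domain. Of the 9 cytosolic class I enzymes tested, which include WARS, MARS and QARS, 3 rose at 25 nM, 6 at 71.25 nM and 3 with drug resistance, and 0, 1 and 2 fell. Of the 9 cytosolic class II enzymes tested, which include GARS, SARS and KARS, 4, 5 and 5 rose and 1 fell in each comparison. Beside shares over all genes of 13.3%, 19.4% and 23% higher and 13.7%, 19.6% and 24.1% lower, several of these counts lie near the background. The class medians were 0.20, 0.48 and 0.12 for class I and 0.19, 0.49 and 0.39 for class II.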

How the data were processed

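RNA of 12 L428 samples was measured on arrays. The deposited signals are linear probe intensity with no background subtraction or normalisation seen in the values, beside a deposited detection p-value per probe. The authors' processed intensity values, per the series' design text, had a housekeeping correction and then quantile normalisation, and served as an alternative only. Columns carry array numbers 1 to 12 and a group, not replicate numbers.

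Signals were corrected with limma 3.58.1 (R 4.3.3) by normexp inferred from detection p, offset 16, quantile normalized and taken to log2. Probes detected (p under 0.05) on at least 3 arrays were kept (20414 of 47227). Limma's model, 1 mean per group over 12 samples (8 residual degrees of freedom), was adjusted by Benjamini-Hochberg over kept probes, and an adjusted p under 0.05 is a call. A ± after a difference is its SE. It was tested on simulated data.

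Members and lists were chosen with earlier results of these data known. All 36 members are accounted for, and values on every array are given for the 18 called with at least 1.5-fold. Other-probe values, 1.5-fold counts and leaving the tryptophan pair out were chosen after seeing the data. Deposited symbols were matched to RefSeq (18 current, 18 older). With scaling by 12 housekeeping genes the median of all genes lay at 0.08, 0.11 and 0.13 at 25 nM, 71.25 nM and in resistant cells, and rises made up 63.3%, 62.1% and 57.8% of calls, against 49.4%, 49.7% and 48.8% with quantile normalisation.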

Additional observations from a re-analysis of the deposited data

How the results depend on the processing

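Of 62 calls of single members against control, each kept its direction under 13 alternatives and with each of 12 arrays left out. Calls were lost in 22 of 806 recalculations under alternatives and in 44 of 744 with an array left out. The counts and medians that moved follow, and the cause was not tested unless fewer samples were fitted.

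Called members at 71.25 nM against 25 nM, 3 here, numbered 11 without background correction, 7 with an offset of 50, 1 with housekeeping scaling, 0 with the 2 groups alone, 7 with a trended robust prior, 11 on the authors' values, 10 with the replicate block on those values and 5 without 71.25 nM replicate 1, the sample whose description gives 25 nM. Over all genes, 5.86% here, the shares called were 11.9%, 10.6%, 4.65%, 3.92%, 10.2%, 11.9%, 10.9% and 8.62% in the same order. Resistant against 71.25 nM gave 7 with the 2 groups alone, and resistant against 25 nM 17 without background correction, 17 on the authors' values, 18 with the block and 17 without that sample, where 18.3%, 32.9%, 32.9%, 32.4% and 32.3% of all genes were called. Cytosolic falls at 25 nM, 1 here, numbered 2 without background correction, with an offset of 50, median scaling, cyclic loess, the trended prior and all 3 fits of the authors' values, and 0 with housekeeping scaling or the 2 groups alone. Cytosolic falls at 71.25 nM numbered 1 with the 2 groups alone. In resistant cells cytosolic rises numbered 5 under median scaling, and falls 5 without background correction, under median scaling and on the authors' values, and 1 with the 2 groups alone.

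The cytosolic median under median scaling was 0.14, 0.34 and -0.09 at 25 nM, 71.25 nM and in resistant cells, with housekeeping scaling 0.24 at 25 nM and 0.05 in resistant cells, and with cyclic loess 0.17 in resistant cells. The mitochondrial median at 25 nM was -0.14 without background correction and in all 3 fits of the authors' values, and -0.13 with housekeeping scaling. At 71.25 nM it was -0.18 without background correction, on the authors' values and with the block, -0.21 without the sample in doubt, -0.24 with an offset of 50, -0.17 with housekeeping scaling and -0.37 with the stricter filter. In resistant cells it was -0.33 without background correction and in all 3 fits of the authors' values, -0.39 with an offset of 50 and -0.57 under median scaling. The methods' one-way test on the authors' values called 29 members, against 25. The share of all genes called by that test was not kept, so the count says nothing about the members beside other genes.

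With 1 array left out, called members ranged from 0 to 2 at 71.25 nM against 25 nM, 5 to 12 in resistant against 71.25 nM and 8 to 13 against 25 nM. Over all genes the shares called ranged from 2.54% to 6.44%, 16.8% to 22.7% and 24.1% to 31.1% in the same order. Mitochondrial rises at 25 nM ranged from 1 to 2. Cytosolic falls ranged from 0 to 1 at 25 nM, 0 to 2 at 71.25 nM and 1 to 2 in resistant cells. Cytosolic medians ranged from 0.20 to 0.26, 0.44 to 0.49 and 0.13 to 0.21 (0.18 without control array 1 or 2), and mitochondrial medians from -0.27 to -0.09, -0.34 to -0.17 and -0.55 to -0.38 (-0.41 without resistant array 10, and -0.22 at 71.25 nM without array 8). The mitochondrial medians of -0.09 and -0.17 were without control array 1, and so was the count of 0 for cytosolic falls at 71.25 nM. The count of 1 in resistant cells was without control array 1 or resistant array 12. Of single calls, FARS2 at 25 nM was lost without control array 2 (-0.39) or 25 nM array 4 (-0.42), HARS2 at 25 nM without array 4 or 5 (0.36 each), and YARS2 at 71.25 nM without control array 2 (-0.31). QARS at 71.25 nM was lost without control array 1 (-0.31) or 2 (-0.25) or array 7 (-0.26), RARS without control array 3 or array 9 (0.27 each), KARS at 71.25 nM without control array 1 (-0.33), KARS in resistant cells without control array 1 or 2 (-0.29 each) or array 12 (-0.23), and TARS in resistant cells without control array 1 (0.30). KARS at 25 nM was lost with 5 arrays left out (adjusted p up to 0.0999), IARS2 at 71.25 nM with 7 (up to 0.192), TARS2 in resistant cells with 6 (up to 0.204) and VARS there with 11 (up to 0.145).

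Replicate numbers exist only for the authors' values. Same-numbered samples correlated at -0.29 to 0.16 in their deviations, and 3 of 12 correlated best with their own number. With 3 samples per group these values cannot show whether same-numbered samples share more than a number. The replicate block gave the counts above. Signal over background limits WARS2, FARSB and the dimmer probes.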

Other observations

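Other parts of tRNA charging, from a list with 17 of 18 genes tested, gave 1 rise and 4 falls at 25 nM, 1 rise and 7 falls at 71.25 nM, and 1 rise and 9 falls in resistant cells, with medians of -0.04, -0.16 and -0.38. Over all genes 13.3%, 19.4% and 23% rose and 13.7%, 19.6% and 24.1% fell. The scaffold proteins of the multisynthetase complex AIMP2 and EEF1E1 fell, AIMP2 by 0.32, 0.39 and 0.71, and EEF1E1 by 0.45, 0.40 and 0.47. MTFMT, which formylates the initiator methionyl-tRNA of mitochondria, fell by 0.40 at 71.25 nM and 0.56 in resistant cells. TRNT1, which adds the CCA end to transfer RNA, fell by 0.40, 0.60 and 0.75. SEPSECS, the last enzyme of selenocysteine synthesis on its transfer RNA, rose by 0.38, 0.56 and 0.29.

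Of 9 elongation factors 1 rose and 1 fell at 25 nM, 2 rose and 2 fell at 71.25 nM, and 1 rose and 3 fell in resistant cells. The shares of all genes were 13.3%, 19.4% and 23% higher and 13.7%, 19.6% and 24.1% lower. GFM1, TUFM and TSFM, which serve mitochondrial ribosomes, fell in resistant cells by 0.73, 0.72 and 0.38. EEF1G, a subunit of the cytosolic exchange factor, rose by 0.35 at 71.25 nM. GFM2, a mitochondrial ribosome recycling factor, rose by 0.86, 0.67 and 0.56. The cytosolic EEF1A1 and EEF2 were not called against control, with values from -0.25 to 0.22, and EEF2 was lower in resistant cells than at 71.25 nM (-0.41, adjusted p = 0.0147) and 25 nM (-0.38, adjusted p = 0.0167).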
